A study of Sus scrofa with 6 samples.

Results

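The genes described here are the fibroblast growth factor (FGF) ligands, their receptors and adaptors, and the feedback genes of the ERK kinase pathway in pig cells. They were chosen by symbol alone: every gene named FGF, FGFR, SPRY or SPRED followed by a number, together with FGFRL1, FGFBP1, FGFBP3, KLB, FRS2, FRS3, DUSP4, DUSP5, DUSP6, ETV1, ETV4 and ETV5. This gave 37 of the 20131 genes in the table. The rule itself uses no measured value, but it was set with earlier results of these data known. FGF3, FGF5, FGF7, FGF11, FGF13, FGF16, FGF23 and SPRY3 were not analysed here, and every rank and share among ligands below is over the 13 secreted ligands that were.

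FGF ligands are secreted proteins that bind receptor tyrosine kinases together with heparan sulfate. The active receptor phosphorylates the docking adaptor FRS2, which recruits the machinery that switches on RAS and, through it, the kinases RAF, MEK and ERK. ERK signalling in turn raises genes that restrain it (Sprouty and SPRED proteins and the dual-specificity phosphatases) and the PEA3 group of ETS transcription factors, so the mRNA of these genes is widely used as a readout of the pathway. Epiblast cells of mammals make and respond to FGF, and fibroblasts are the cells for whose growth the first of these factors were named.

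Strand-specific RNA-seq libraries of rRNA-depleted total RNA from pig cells of 2 kinds were compared. The first, called pgEpiSC, are stem cells of the pre-gastrulation epiblast, with embryonic day 10 epiblast given as their stage (4 libraries). The second, called pEF, are embryonic fibroblasts with embryonic day 30 given as their fetal stage (2 libraries). No genetic change, drug or other agent is named for either group, and the culture medium, passage, breed and sex, and whether the 4 pgEpiSC libraries come from separate lines, were not given in the sources used here. Both groups are described as biological replicates, but nothing says that each came from its own animal or culture, so the p-values measure the spread between these libraries only. The 8 markers listed for the epiblast, among them NANOG and LIN28A, were each at 1 TPM or more in all 4 pgEpiSC libraries and summed to between 427 and 1855 TPM, against 0.118 and 0.660 TPM in pEF. The 9 fibroblast markers with a row summed to 598 and 1618 TPM in pEF and to between 3.05 and 9.30 TPM in pgEpiSC. Markers of endothelium reached 1.53 TPM in sum and those of blood or immune cells 1.77 TPM, with no single gene above the 1.01 TPM of TIE1. Those of hypoblast and endoderm reached 4.09 TPM in sum (3.73 TPM of it FOXA2, in pgEpiSC library 3). FOXA2 was at 2.37, 3.30, 3.73 and 1.47 TPM in pgEpiSC, against 0.00687 and 0.00357 TPM in pEF. Markers of trophectoderm reached 13.3 TPM in sum (10.7 TPM of it KRT7, in pgEpiSC library 2). Skeletal muscle markers summed to 24.8 and 210 TPM in pEF, nearly all of it DES. MYF5 and MYH3 were also at 3.06 and 1.35 TPM in pEF library 2, against 0.234 and 0.0109 TPM in pEF library 1. The part of the muscle markers in the results below was not tested.

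Expression is given as TPM, a transcript abundance scaled by gene length, so levels of different genes can be compared within a library. The columns do not share a common total. They sum to between 157288 and 320206 TPM in pgEpiSC and to 93556 and 145611 TPM in pEF, and read depth is unknown. Of the 21 FGF module genes that could be tested, 20 were higher in both pgEpiSC libraries 2 and 3 than in libraries 1 and 4, as were 93.9% of all 10424 tested genes. After each library was divided by a median-ratio factor (0.720, 2.17, 1.51 and 0.733 for pgEpiSC, 0.592 and 0.979 for pEF), 9 of the 21 and 31.5% of all genes still had that order. Tested differences are therefore given on both scales below, as deposited and median-ratio scaled. All folds are differences of mean log2(TPM + 1), pgEpiSC less pEF, with their standard error; the added 1 shrinks the folds of low genes.

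The main question was how the FGF system of the epiblast cells differs from that of fibroblasts. Among the ligands FGF2 was lower in pgEpiSC, and FGF17 and FGF19 were higher. DUSP4 and ETV5 were also higher, as were FGF12 and FGF14. The 4 receptors and FRS2 were not called on the values as deposited and were called after scaling. No Sprouty or SPRED gene was called on either scale. Of the 37 genes, 21 averaged at least 1 TPM in pgEpiSC and 12 in pEF, on the values as deposited, whose column totals differ. Over all genes, counted by library, 7149, 10250, 9892 and 7146 were at 1 TPM or more in pgEpiSC, against 7208 and 8699 in pEF. The test took genes with at least 1 TPM in at least 2 libraries, which 21 of the 37 met. Of these, 6 were called higher and 1 lower by limma (Benjamini-Hochberg adjusted p below 0.05), and 14 were not called. Over all tested genes 18% were called higher and 9.43% lower, 27.4% in all. After scaling, 12 were called higher, 1 lower and 8 were not called, against 28.6% and 29.8% of all tested genes, 58.5% in all. The share of all calls that were higher was 65.6% as deposited and 49.0% after scaling. The median fold of the 21 genes was 0.97 as deposited and 0.53 scaled, where that of all tested genes was 0.48 and 0.06. Of the 21, 8 met the minimum through pgEpiSC alone (FGF12, FGF14, FGF17, FGF19, FGFR3, FGFR4, SPRY4 and SPRED2), so their direction as deposited was largely set by the filter. After scaling the fold of SPRY4 was negative (-0.10). The counts and medians above thus do not speak for all 37 genes. As deposited, the test without a filter kept 1 of the 7 calls, that of FGF17, and a pseudocount of 5 ended those of FGF19, FGF12, FGF14 and ETV5. All pgEpiSC libraries lay above both pEF libraries for 11 of the 21 genes as deposited and below them for 1, where 36.6% and 12.9% of all tested genes did so (49.5% in all). After scaling 13 lay above and 3 below, where 36.3% and 34.6% of all tested genes did so (70.8% in all).

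**Figure D1:**
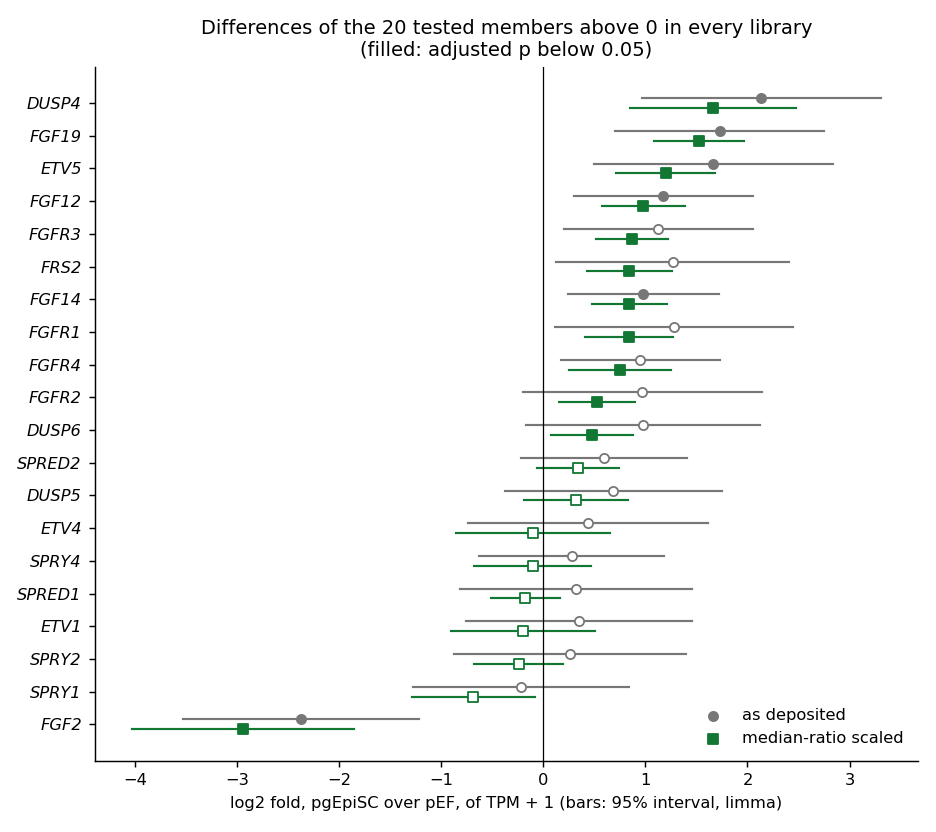
Difference between pgEpiSC and pEF for 20 tested genes, in log2 units of TPM + 1, as deposited (grey circles) and after median-ratio scaling (green squares), with 95% intervals from limma; filled symbols have an adjusted p below 0.05. FGF17 is left out because it is listed at 0 in both pEF libraries. FGF2 stands alone on the left, the receptors, FRS2 and DUSP6 turn from open to filled after scaling, and SPRY2, SPRY4, SPRED1, ETV1 and ETV4 turn from above 0 to below it.

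FGF2, the basic fibroblast growth factor, was the highest in pEF of the 13 ligands analysed. It was at 1.77, 6.24, 3.45 and 1.49 TPM in pgEpiSC libraries 1 to 4 and at 30.4 and 11.8 TPM in pEF libraries 1 and 2. Every pgEpiSC library lay below both pEF libraries, and the mean was 6.51 times as high in pEF (21.1 ± 13.2 TPM, SD, n = 2) as in pgEpiSC (3.24 ± 2.18 TPM, SD, n = 4), and 13.1 times as high after scaling. The fold was -2.38 ± 0.57 as deposited (limma, adjusted p = 0.00163) and -2.94 ± 0.47 scaled (adjusted p = 0.00116). Ranked among the 10424 tested genes of its own library, a measure that no library factor can change, FGF2 stood between the 42.3rd and 50.8th percentile in pgEpiSC and at the 96.1st and 83.0th in pEF. Without pEF replicate 1, the higher of the pair, the fold as deposited was -1.73 and not called (adjusted p = 0.257), while the scaled fold was -2.07 and called (adjusted p = 0.000638). In the RefSeq annotation of Sscrofa11.1 the FGF2 gene overlaps NUDT6, a Nudix hydrolase gene known as its antisense partner. NUDT6 was at 1.57, 4.56, 4.98 and 2.02 TPM in pgEpiSC, against 9.56 and 4.28 TPM in pEF. The libraries are stranded, but whether the quantification used the strand is not given in the sources used here, so reads of this pair may not be fully told apart. The same holds for FGF22 with RNF126, SPRED1 with a protein-coding locus that has no name, and FRS2, ETV1 and SPRY1 with pseudogenes.

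FGF17 and FGF19 took up a large part of the ligand mRNA in pgEpiSC. Both met the minimum of the test through pgEpiSC alone, so their direction was largely set by the filter. FGF17, a member of the FGF8 subfamily that signals mainly in the early embryo and brain, was at 4.98, 4.00, 2.94 and 1.91 TPM in pgEpiSC and is listed at 0 in both pEF libraries. It was called higher on both scales (adjusted p = 0.00144 as deposited and 0.00322 scaled); no fold is given against values of 0. FGF17 was the only one of the 21 tested genes whose highest deposited pgEpiSC value was in library 1. FGF19, whose product acts as an intestinal hormone in adults and is also made in the embryo, was at 1.57, 7.06, 2.61 and 1.51 TPM in pgEpiSC, against 0.0411 and 0.200 TPM in pEF. All 4 pgEpiSC libraries lay above both pEF libraries. Its fold was 1.73 ± 0.51 as deposited (adjusted p = 0.00929) and 1.52 ± 0.19 scaled (adjusted p = 0.000337). As deposited both calls were lost when either pEF library was left out (without replicate 1 and replicate 2, adjusted p = 0.111 and 0.105 for FGF17 and 0.255 and 0.177 for FGF19).

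**Figure D2:**
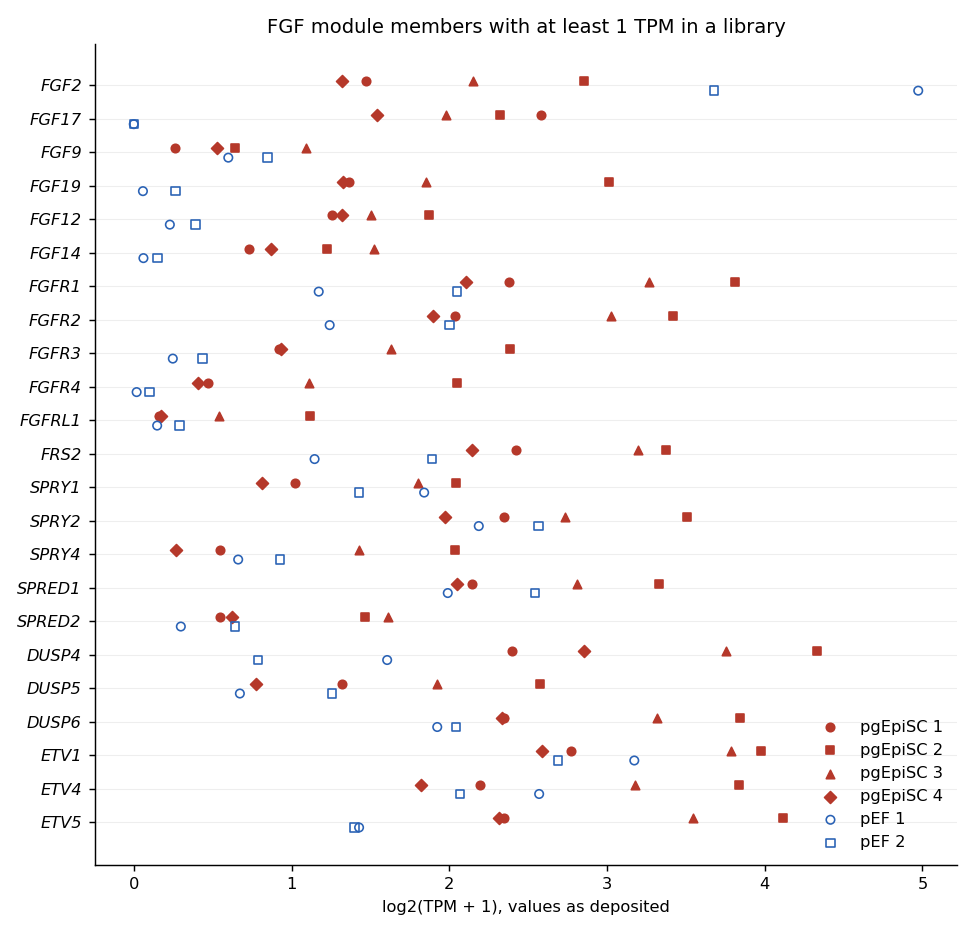
Level of each of the 23 genes that reached 1 TPM in a library, as log2(TPM + 1) of the deposited values, with 1 symbol per library (red filled, pgEpiSC; blue open, pEF). FGF2 is the gene whose pEF libraries lie to the right of all pgEpiSC libraries, and pgEpiSC libraries 2 and 3 (squares and triangles) lie to the right of libraries 1 and 4 for most genes.

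The remaining secreted ligands were low. FGF9 was at 0.197, 0.558, 1.13 and 0.442 TPM in pgEpiSC, against 0.515 and 0.798 TPM in pEF; the groups overlapped as deposited, and after scaling all pgEpiSC libraries lay below both pEF libraries. FGF8, a ligand of gastrulation, was at 0.190, 0.884, 0.637 and 0.543 TPM in pgEpiSC and listed at 0 in both pEF libraries. FGF4, the ligand by which inner cell mass and epiblast cells signal to their neighbours, was at 0.296, 0.742, 0.178 and 0.312 TPM in pgEpiSC and likewise listed at 0 in pEF. FGF10, a mesenchymal ligand that acts on epithelium, had the opposite order at a low level, with 0.0130 to 0.0270 TPM in pgEpiSC and 0.683 and 0.111 TPM in pEF. FGF22 and FGF21 had their highest values at 0.536 and 0.596 TPM, and FGF18, FGF1, FGF20 and FGF6 at 0.126, 0.0961, 0.0273 and 0.00974 TPM. None of these 10 ligands reached 1 TPM in 2 libraries, so they were not tested. FGF4 and FGF19 are immediate neighbours in the Sscrofa11.1 annotation, in a row with FGF3; both were higher in all 4 pgEpiSC libraries than in either pEF library, FGF19 at the higher level in each library. SPRY4 and FGF1 are also immediate neighbours.

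The make-up of the ligand mRNA within a library does not depend on any library factor. Of the summed TPM of the 13 secreted ligands, FGF2 held 19.2, 30.1, 28.6 and 22.6% in pgEpiSC, against 95.2 and 88.2% in pEF. FGF17 held 53.7, 19.3, 24.3 and 28.9% in pgEpiSC, and FGF19 16.9, 34.0, 21.6 and 22.9%. In pEF, FGF19 held 0.129 and 1.5%. The ligand with the largest share was thus FGF17 in pgEpiSC libraries 1 and 4, FGF19 in library 2, FGF2 in library 3 and FGF2 in both pEF libraries. The ligand sum itself was 12.2 ± 6.14 TPM in pgEpiSC and 22.7 ± 13.1 TPM in pEF, and the libraries of the groups overlapped. After scaling it was at 12.9, 9.57, 8.02 and 9.0 in pgEpiSC, all below the 54.0 and 13.7 of pEF.

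FGF12 and FGF14 belong to the FGF homologous factors, which stay inside the cell, bind voltage-gated sodium channels and are not regarded as ligands of the FGF receptors. FGF12 was at 1.39, 2.66, 1.83 and 1.49 TPM in pgEpiSC, against 0.172 and 0.311 TPM in pEF. FGF14 was at 0.657, 1.34, 1.87 and 0.827 TPM in pgEpiSC, against 0.0434 and 0.111 TPM in pEF. The groups did not overlap for either gene, but both met the minimum of the test through pgEpiSC alone, so their direction was largely set by the filter. The folds were 1.18 ± 0.44 for FGF12 (adjusted p = 0.0392) and 0.98 ± 0.37 for FGF14 (adjusted p = 0.0419), and after scaling 0.98 ± 0.17 (adjusted p = 0.00200) and 0.84 ± 0.16 (adjusted p = 0.00260). As deposited both calls were lost without pgEpiSC replicate 3 (adjusted p = 0.101 and 0.153), without pEF replicate 1 (0.284 and 0.222) and without pEF replicate 2 (0.197 and 0.169). They were also lost with a pseudocount of 5 (0.0896 and 0.108), without the filter (0.111 and 0.114) and without the variance trend (0.0654 and 0.128). Of the carrier proteins that release FGFs from the matrix, FGFBP1 and FGFBP3 did not exceed 0.0326 and 0.216 TPM.

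FGFR1 and FGFR2 were the main receptor mRNAs in both cell types. FGFR1 was at 4.21, 13.0, 8.61 and 3.31 TPM in pgEpiSC, against 1.25 and 3.14 TPM in pEF, without overlap. FGFR2 was at 3.10, 9.67, 7.14 and 2.73 TPM in pgEpiSC, against 1.37 and 3.0 TPM in pEF, where pgEpiSC library 4 lay below pEF library 2. As deposited the folds of 1.28 ± 0.58 for FGFR1 (adjusted p = 0.0944) and 0.97 ± 0.58 for FGFR2 (adjusted p = 0.210) were not called. Dividing by the library factors narrowed the pgEpiSC range: after scaling FGFR1 was at 5.84, 6.0, 5.72 and 4.51 in pgEpiSC and at 2.12 and 3.21 in pEF, and FGFR2 at 4.31, 4.46, 4.74 and 3.72 against 2.31 and 3.07. On that scale both were called higher, with folds of 0.84 ± 0.19 (adjusted p = 0.00570) and 0.53 ± 0.16 (adjusted p = 0.0226). The scaled call of FGFR1 was lost without pEF replicate 1 (0.55, adjusted p = 0.0943). That of FGFR2 was lost without pEF replicate 1 (0.30, adjusted p = 0.276), pEF replicate 2 (0.59, adjusted p = 0.0532) or pgEpiSC replicate 1 (0.54, adjusted p = 0.0523). The table has 1 value per gene, so the splice forms of the receptors that differ in ligand choice cannot be told apart.

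FGFR3 and FGFR4 were low in pgEpiSC and lower still in pEF. FGFR3 was at 0.890, 4.23, 2.10 and 0.906 TPM in pgEpiSC, against 0.187 and 0.353 TPM in pEF. FGFR4 was at 0.387, 3.14, 1.16 and 0.326 TPM in pgEpiSC, against 0.0127 and 0.0715 TPM in pEF. Neither gene had overlapping groups, but both met the minimum of the test through pgEpiSC alone, so their direction was largely set by the filter. As deposited they were not called (1.13 ± 0.46, adjusted p = 0.0619, and 0.95 ± 0.39, adjusted p = 0.0600), and both were called without pgEpiSC replicate 1 (adjusted p = 0.0305 and 0.0212) or replicate 4 (adjusted p = 0.0355 and 0.0231). Both were also called with a pseudocount of 0.1 (adjusted p = 0.0189 and 0.00182), and FGFR3 with a robust variance (adjusted p = 0.0471). After scaling both were called higher, at 0.87 ± 0.15 (adjusted p = 0.00192) and 0.75 ± 0.21 (adjusted p = 0.0174); the scaled call of FGFR4 was lost without pEF replicate 1 or 2 (adjusted p = 0.0820 and 0.0656).

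Within the summed TPM of the 4 receptors the FGFR1 share overlapped between the groups, with 49.0, 43.3, 45.3 and 45.5% in pgEpiSC and 44.5 and 47.8% in pEF. The shares of the other receptors did not overlap. FGFR2 held 35.8 ± 2.53% in pgEpiSC (SD, n = 4) and 47.1 ± 1.89% in pEF (SD, n = 2). FGFR3 held 12.0 ± 1.64% and 6.01 ± 0.895%. FGFR4 held 4.51, 10.5, 6.11 and 4.49% in pgEpiSC and 0.45 and 1.09% in pEF. These shares are given as a description, without a test. The 4 receptors summed to 16.2 ± 10.6 TPM in pgEpiSC and 4.69 ± 2.65 TPM in pEF, and to 12.1 ± 1.65 and 5.74 ± 1.38 after scaling.

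**Figure D3:**
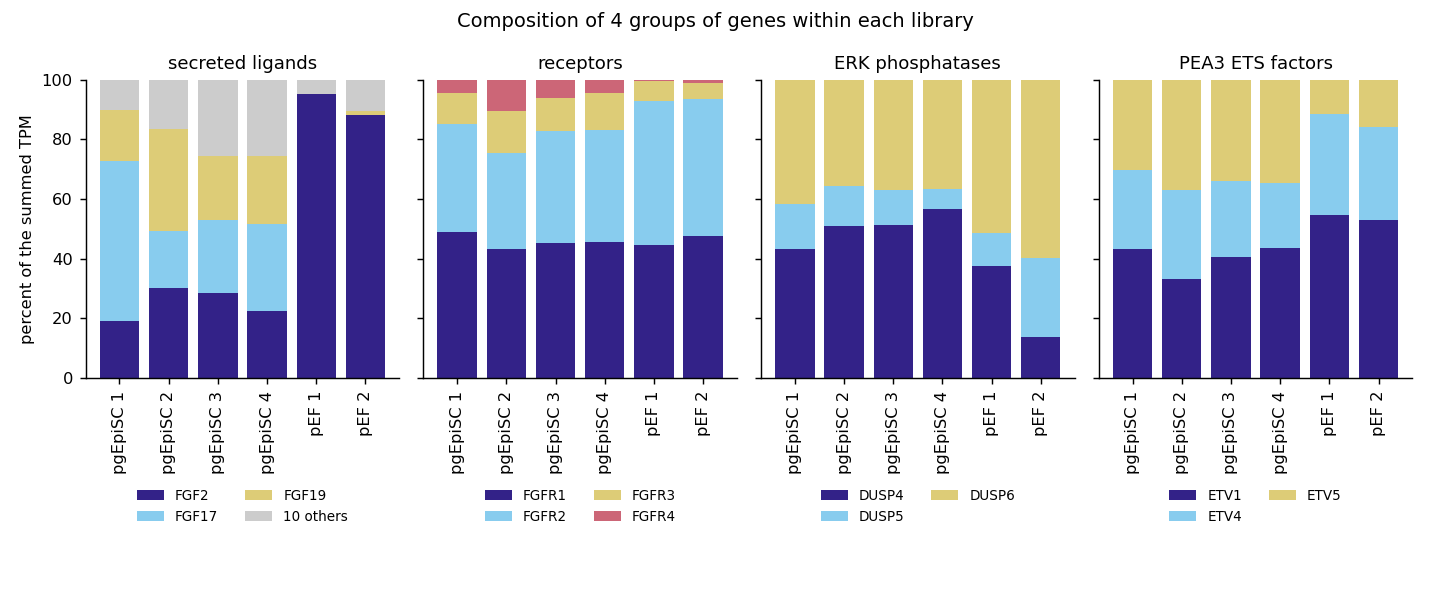
Percent of the summed TPM held by each gene within each library, for the secreted ligands (FGF2, FGF17, FGF19 and the 10 others together), the 4 receptors, the ERK phosphatases and the PEA3 ETS factors; each bar is 1 library. FGF2 fills most of the ligand bar in pEF (95.2 and 88.2%) and 19.2 to 30.1% in pgEpiSC, while the FGFR1 segment is of like height in all 6 libraries.

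FRS2, the adaptor that couples the receptors to RAS, was at 4.37, 9.36, 8.17 and 3.42 TPM in pgEpiSC, against 1.21 and 2.71 TPM in pEF, without overlap. It was not called as deposited (1.27 ± 0.57, adjusted p = 0.0916) and was called higher after scaling (0.84 ± 0.18, adjusted p = 0.00477), and this scaled call was lost when pEF replicate 1 was left out (0.62, adjusted p = 0.0807). Its relative FRS3 did not exceed 0.507 TPM. KLB (beta-Klotho), the co-receptor that FGF19 and FGF21 need for their hormone action, was at 0.113, 0.569, 0.734 and 0.249 TPM in pgEpiSC, against 0.0155 and 0.00902 TPM in pEF. KLB thus lay under 1 TPM in the cells where FGF19 was at 1.51 to 7.06 TPM. In the RefSeq annotation KLB overlaps the ribosomal protein gene RPL9, which was not analysed here. FGFRL1, a receptor without a kinase domain, was at 0.115, 1.17, 0.457 and 0.129 TPM in pgEpiSC, against 0.108 and 0.222 TPM in pEF.

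Among the phosphatases that dephosphorylate ERK, DUSP4, a nuclear enzyme, had the largest fold. It was at 4.26, 19.1, 12.5 and 6.24 TPM in pgEpiSC, against 2.04 and 0.726 TPM in pEF, and its lowest pgEpiSC value was above both pEF values. The fold was 2.14 ± 0.58 as deposited (adjusted p = 0.00496) and 1.66 ± 0.35 scaled (adjusted p = 0.00466). DUSP4 stood between the 70.0th and 80.0th percentile of its library in pgEpiSC and at the 51.0th and 14.9th in pEF. The call as deposited was lost without pEF replicate 1 (adjusted p = 0.0884) or replicate 2 (0.209), and the scaled fold, still called, was 2.35 and 0.89 without them (adjusted p = 0.000964 and 0.0372). DUSP6, the cytoplasmic phosphatase often used as the readout of FGF signalling, was at 4.09, 13.4, 8.98 and 4.05 TPM in pgEpiSC, against 2.79 and 3.12 TPM in pEF, also without overlap. Its fold of 0.98 ± 0.57 was not called as deposited (adjusted p = 0.198). After scaling it was at 5.68, 6.16, 5.96 and 5.52 in pgEpiSC against 4.72 and 3.19 in pEF and was called by a narrow margin (0.48 ± 0.17, adjusted p = 0.0450). That call was lost without pgEpiSC replicate 1, 3 or 4 (adjusted p = 0.0853, 0.0508 and 0.0718) and without pEF replicate 2 (0.15, adjusted p = 0.547). DUSP5, at 1.5, 4.95, 2.78 and 0.713 TPM in pgEpiSC and 0.594 and 1.39 TPM in pEF, was called on neither scale. The balance between the phosphatases differed: DUSP6 held 51.4 and 59.6% of their summed TPM in pEF and 35.7 to 41.5% in pgEpiSC, and DUSP4 37.6 and 13.9% against 43.2 to 56.7%.

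Of the PEA3 group of ETS factors, which transcribe targets of FGF signalling, only ETV5 was called. ETV5 was at 4.09, 16.4, 10.7 and 3.98 TPM in pgEpiSC, against 1.69 and 1.64 TPM in pEF, without overlap. Its fold was 1.67 ± 0.58 as deposited (adjusted p = 0.0284) and 1.2 ± 0.21 scaled (adjusted p = 0.00186), and the call as deposited was lost without pgEpiSC replicate 3 (adjusted p = 0.106), pEF replicate 1 (0.280) or pEF replicate 2 (0.238). ETV1 was at 5.82, 14.7, 12.8 and 5.0 TPM in pgEpiSC, against 8.02 and 5.44 TPM in pEF. ETV4 was at 3.59, 13.3, 8.03 and 2.53 TPM in pgEpiSC, against 4.94 and 3.19 TPM in pEF. As deposited, the pEF values of ETV1 and ETV4 lay inside the range of the pgEpiSC values. After scaling, pEF library 1 lay above all pgEpiSC libraries (13.6 for ETV1 and 8.34 for ETV4) and pEF library 2 below them (5.56 and 3.26). The folds of ETV1 and ETV4 were 0.35 (95% interval -0.76 to 1.46) and 0.44 (-0.73 to 1.61) as deposited, and -0.20 (-0.90 to 0.51) and -0.10 (-0.85 to 0.65) after scaling. The sign thus turned with the scale, and all 4 intervals span 0. Within the sum of the 3 factors ETV5 held 30.3, 36.9, 33.9 and 34.6% in pgEpiSC and 11.5 and 15.9% in pEF, ETV1 held 33.2 to 43.5% against 54.7 and 53.0%, and ETV4 22 to 29.9% against 33.7 and 31.1%. A test of the difference between ETV5 and the other ETV genes was not made.

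**Figure D4:**
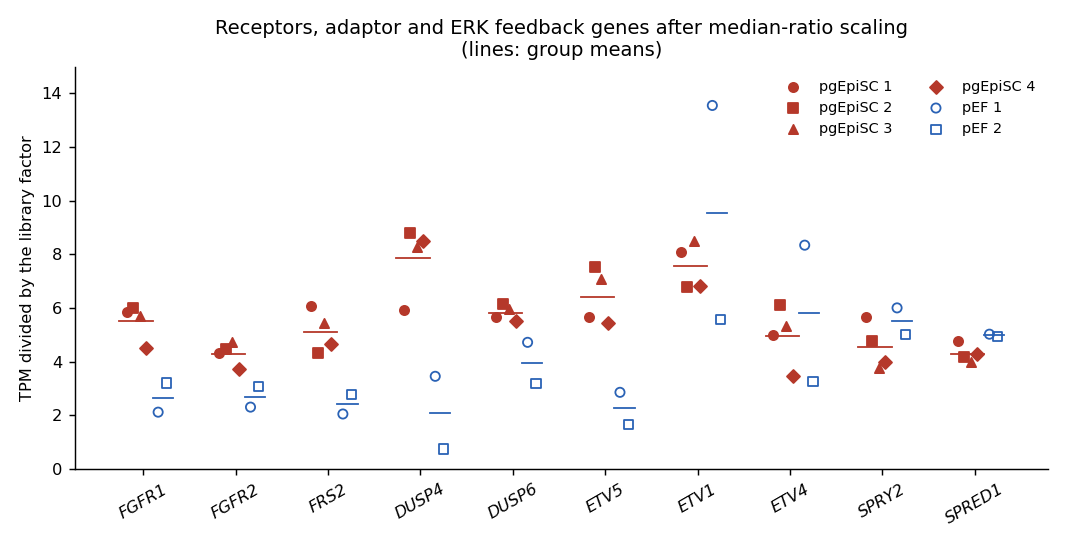
TPM divided by the median-ratio factor of each library for 2 receptors, FRS2 and 7 feedback genes, with 1 symbol per library and a line at each group mean. The 4 pgEpiSC libraries (red) lie above both pEF libraries (blue) for FGFR1, FGFR2, FRS2, DUSP4, DUSP6 and ETV5, whereas for ETV1 and ETV4 pEF library 1 is highest and the group means of SPRY2 (4.55 in pgEpiSC and 5.51 in pEF) and SPRED1 (4.30 and 4.98) lie near each other.

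Sprouty proteins act between the receptor and RAF, and SPRED proteins bring the RAS inactivator neurofibromin to the membrane. SPRY2, the most abundant Sprouty gene in all 6 libraries, was at 4.08, 10.4, 5.67 and 2.93 TPM in pgEpiSC, against 3.55 and 4.92 TPM in pEF. SPRED1 was at 3.43, 9.07, 6.02 and 3.14 TPM in pgEpiSC, against 2.97 and 4.83 TPM in pEF. The groups overlapped for both genes as deposited, and for SPRY2 after scaling too; scaled SPRED1 was at 4.76, 4.18, 4.0 and 4.28 in pgEpiSC, all below the 5.03 and 4.94 of pEF. SPRED1 stood between the 60.4th and 65.1st percentile of its library in pgEpiSC and at the 62nd in both pEF libraries. The folds were 0.26 (95% interval -0.87 to 1.40) and 0.32 (-0.82 to 1.46) as deposited and -0.24 (-0.68 to 0.20) and -0.18 (-0.51 to 0.16) after scaling. The scaled 95% intervals end at 0.20 and 0.16 log2 units, and those as deposited at 1.40 and 1.46. The scaled ends lie under the scaled folds of DUSP4 and ETV5, but they rest on 2 pEF libraries. The genes were not tested against each other.

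SPRY1 was at 1.03, 3.12, 2.48 and 0.759 TPM in pgEpiSC, against 2.58 and 1.69 TPM in pEF. Its fold was -0.21 ± 0.52 as deposited (adjusted p = 0.791), and after scaling, where each pgEpiSC library lay below both pEF libraries, -0.69 ± 0.26 (adjusted p = 0.0512). Without pEF replicate 2 the scaled fold was -1.27, and without pEF replicate 1 it was -0.28. SPRY4 was at 0.462, 3.11, 1.69 and 0.205 TPM in pgEpiSC, against 0.582 and 0.902 TPM in pEF, and its folds were 0.28 (-0.62 to 1.18) and -0.10 (-0.68 to 0.47). SPRED2 was at 0.458, 1.77, 2.06 and 0.538 TPM in pgEpiSC, against 0.230 and 0.561 TPM in pEF, with folds of 0.59 (-0.22 to 1.40) and 0.34 (-0.06 to 0.74). SPRED3 was at 0.179, 0.838, 0.585 and 0.196 TPM in pgEpiSC, against 0.517 and 0.992 TPM in pEF, and was not tested.

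The wider pathway was read from 4 lists of 70 genes, of which 60 had a row and 56 were tested. As deposited 1 was higher and 8 were lower (18% and 9.43% of all tested genes), and after scaling 7 and 29 (28.6% and 29.8%). The median fold was -0.18 as deposited and -0.71 scaled. Of 16 tested genes of the RAS to ERK cascade, 1 was higher and 0 were lower as deposited, and 3 and 10 after scaling. The 1 was RPS6KA1, a kinase that ERK activates, at 3.36 ± 2.66 TPM in pgEpiSC and 0.448 ± 0.172 TPM in pEF (1.40 ± 0.54, adjusted p = 0.0466, and scaled 1.08 ± 0.19, adjusted p = 0.00174). RPS6KA1 met the minimum of 1 TPM through pgEpiSC alone, so its direction was largely set by the filter. Its call was lost without pgEpiSC replicate 2 or 3 (adjusted p = 0.0582 and 0.110) or pEF replicate 1 or 2 (0.419 and 0.273), with a pseudocount of 5 (0.133), without the filter (0.214) and without the variance trend (0.0593). The most abundant gene of the list was YWHAZ, a 14-3-3 protein that binds RAF, at 212 ± 76.1 and 132 ± 50.5 TPM, not called on either scale. Of 12 tested adaptors to RAS, 0 were higher and 1 was lower, and 1 and 6 after scaling. The lower gene was GAB1, a docking protein, at 0.489 ± 0.406 and 2.94 ± 2.05 TPM (-1.34 ± 0.43, adjusted p = 0.0171, and scaled -1.73 ± 0.20, adjusted p = 0.000218). GAB1 met the minimum through pEF alone, so its direction was largely set by the filter. Its call as deposited was lost without pgEpiSC replicate 4 (adjusted p = 0.0511) or pEF replicate 2 (-0.78, adjusted p = 0.214), without the filter (0.139) and without the variance trend (0.0511). CRK, the most abundant adaptor, was at 103 ± 59.4 and 46.1 ± 14.1 TPM and was not called on either scale.

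A list of other genes that ERK induces and of further inhibitors of the pathway had 13 tested genes. Of these 0 were higher and 3 were lower as deposited (18% and 9.43% of all tested genes), and 1 and 4 after scaling (28.6% and 29.8%), so the scaled share of lower calls was close to that of all tested genes. IER3, an immediate early gene that also responds to stress and cytokines, was at 0.149 ± 0.0947 TPM in pgEpiSC and 39.6 ± 0.165 TPM in pEF (-5.15 ± 0.55, adjusted p = 7.63e-10, and scaled -5.57 ± 0.21, adjusted p = 1.63e-06). IER3 met the minimum through pEF alone, so its direction was largely set by the filter. DUSP1, a nuclear phosphatase of several MAP kinases, was at 5.30 ± 1.61 and 37.2 ± 16.4 TPM (-2.56 ± 0.53, adjusted p = 0.000261, and scaled -3.11 ± 0.27, adjusted p = 5.24e-05). CCND1, cyclin D1, was at 3.57 ± 2.82 and 15 ± 2.86 TPM (-1.99 ± 0.57, adjusted p = 0.00803, and scaled -2.56 ± 0.31, adjusted p = 0.000266). The call of DUSP1 was lost without pEF replicate 2 (-2.11, adjusted p = 0.0720) and that of CCND1 without pEF replicate 1 or 2 (adjusted p = 0.255 and 0.141) or without the filter (0.0867). IER2 was the most abundant of the list at 19.7 ± 12.2 and 10.3 ± 0.102 TPM and was not called on either scale.

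Heparan sulfate is the co-factor of paracrine FGFs, and of 15 tested genes for its core proteins, its enzymes and other co-receptors 4 were lower and 0 higher as deposited (9.43% and 18% of all tested genes), and 9 and 2 after scaling (29.8% and 28.6%). SDC2, a membrane proteoglycan of mesenchymal cells, was at 0.515 ± 0.366 TPM in pgEpiSC and 70.1 ± 51.2 TPM in pEF (-5.37 ± 0.57, adjusted p = 8.62e-10, and scaled -5.80 ± 0.28, adjusted p = 3.65e-06). In pgEpiSC, SDC2 passed 1 TPM in library 3 alone (1.05 TPM). It thus met the minimum of the test only with the pEF libraries, and its direction was largely set by the filter. SULF1, which removes sulfate groups from heparan sulfate outside the cell, was at 4.31 ± 2.79 and 28.1 ± 5.44 TPM (-2.61 ± 0.56, adjusted p = 0.000431, and scaled -3.19 ± 0.32, adjusted p = 0.000115). As deposited it was not called without pEF replicate 1 (adjusted p = 0.104). HS6ST1, which adds such groups, was at 3.44 ± 2.00 and 11.1 ± 3.96 TPM (-1.51 ± 0.56, adjusted p = 0.0404, and scaled -2.06 ± 0.34, adjusted p = 0.00128). Its call as deposited was lost without pgEpiSC replicate 1, 3 or 4 (adjusted p = 0.0745, 0.0866 and 0.107) or pEF replicate 1 or 2 (0.461 and 0.177), with a pseudocount of 5 (0.0607) and without the filter (0.117). FLRT3, a membrane protein that binds FGF receptors, was the other lower gene of the list, at 0.758 ± 0.231 and 3.63 ± 0.201 TPM (-1.40 ± 0.47, adjusted p = 0.0223, and scaled -1.81 ± 0.21, adjusted p = 0.000218), and is named after its values were seen. FLRT3 likewise passed 1 TPM in pgEpiSC library 2 alone (1.07 TPM), so its direction was also largely set by the filter. Its call as deposited was lost without pgEpiSC replicate 3 or 4 (adjusted p = 0.0840 and 0.0515) or pEF replicate 1 or 2 (0.101 and 0.0911) and without the filter (0.0673). The scaled calls of these 9 pathway genes held with any 1 library left out. In bulk libraries fewer cells with a transcript and less of it per cell cannot be told apart, for any gene above.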

How the data were processed

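The authors deposited TPM values, so named in the table's title, for 20132 Ensembl genes in 6 libraries. Per the submitters' processing notes STAR 2.6.0c and kallisto 0.44.0 were used; their roles, the annotation and the genome build were not given in the sources used here. A gene name table gave symbols for 14062 rows (69.8%), and rows sharing a symbol were summed. Neighbouring and overlapping genes were read from RefSeq (Sscrofa11.1), with no coordinates. For the 10424 genes that reached 1 TPM in 2 or more libraries, log2(TPM + 1) was fitted by group with a variance trend (limma 3.58.1 under R 4.3.3), and p-values were adjusted over all of them. The fit was tested on simulated data. Median-ratio factors were computed over tested genes above 0 in all 6 libraries. Python 3.11.15, pandas 2.3.3, numpy 2.4.6 and matplotlib 3.10.9 served for tables and figures.

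The members, lists and tests were chosen with earlier results of these data known; shares of ligands and of Sprouty genes were added after the values were seen. Every member at 1 TPM or more in a library is named with all its values, and of each pathway list up to 3 called genes per direction by fold and the most abundant gene. Depth is unknown, so no counting intervals are given. Alternatives were other pseudocounts (0.1 and 5), filters, scalings and variance models, a replicate block, and each library left out, also after scaling.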

Additional observations from a re-analysis of the deposited data

Results flagged for a closer look

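In 59 sets of values from the 4 pgEpiSC libraries (TPM of the 23 genes at 1 TPM or more, the same after scaling, and 13 shares within groups of genes), 2 had a sample far from the others by Dixon's test at the 95% level, which chance alone passes in about 1 in 20. FGF17 after median-ratio scaling was at 6.91 in library 1 and at 1.84, 1.95 and 2.6 in libraries 2 to 4, with a gap of 0.851 of the range. The share of SPRY1 in the summed TPM of SPRY1, SPRY2 and SPRY4 was 25.2% in pgEpiSC library 3 and 18.4, 18.8 and 19.5% in the others, with a gap of 0.847 of the range.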

How the results depend on the processing

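As deposited, 1874 genes were called higher and 983 lower, 6 and 1 of them FGF module genes, and 1 and 8 pathway genes. In the same order, median-ratio scaling gave 2984 and 3109, 12 and 1, and 7 and 29; rescaling each library to 1000000 gave 2139 and 2924, 8 and 1, and 2 and 29; quantile normalization gave 3374 and 2779, 11 and 1, and 9 and 25. A pseudocount of 0.1 gave 2398 and 1026, 8 and 1, and 3 and 8; one of 5 gave 967 and 881, 2 and 1, and 0 and 7. No filter gave 787 and 873, 1 and 0, and 0 and 4, and a mean of at least 5 TPM gave 1185 and 368, 2 and 1, and 0 and 6, with FGF17, FGF19, FGF12 and FGF14 not tested. No variance trend gave 1633 and 898, 4 and 1, and 0 and 7. Leaving out each library gave 252 to 2270 and 555 to 1367 genes, 0 to 8 and 0 to 1 module genes, and 0 to 3 and 3 to 13 pathway genes, with the lowest values without a pEF library, where the other stood alone and is assumed to vary like pgEpiSC. Leaving out each library after scaling gave 1764 to 3389 and 2688 to 3004, 8 to 12 and 1 to 3, and 2 to 9 and 25 to 31.

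A replicate block gave 2204 and 893, 7 and 1, and 5 and 6, and with scaling 2376 and 2583, 10 and 1, and 5 and 24. As deposited it ended the calls of FGF12 (adjusted p = 0.0609) and FGF14 (0.149) and added FGFR1, FGFR3 and FGFR4. Nothing says that equal numbers pair libraries. Deviations of libraries with the same number correlated at 0.0982 and 0.172 over genes as deposited, and those with unlike numbers at -0.172 to 0.142. After scaling these were 0.0701 and 0.112, against -0.132 to 0.132. The 2 pEF libraries deviate from their mean by equal amounts of opposite sign, so the values come in mirrored pairs. The 7 calls of module genes held after scaling and in all 42 scaled values with 1 library left out.

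Some folds turned negative, and the cause was not tested. With scaling SPRY2 was at -0.24, SPRY4 at -0.10, SPRED1 at -0.18, ETV1 at -0.20 and ETV4 at -0.10; with rescaling they were at -0.49, -0.41, -0.42, -0.42 and -0.31, IER2 at -0.061 and YWHAZ at -0.14. Quantile normalization gave SPRY2 -0.050, SPRY4 -0.12, ETV1 -0.012 and YWHAZ -0.085, and scaling with the block SPRY2 -0.067, SPRED1 -0.13 and ETV1 -0.22. With 1 library left out, with or without scaling, folds ran from -0.45 to 0.49 for SPRY2, -0.19 to 0.54 for SPRY4, -0.29 to 0.59 for SPRED1, -0.88 to 0.59 for ETV1, -0.77 to 0.75 for ETV4, -0.30 to 1.01 for IER2 and -0.068 to 1.06 for YWHAZ.

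Depth is unknown, so values near 0 have no floor. With 2 pEF libraries, 16 of the 42 values of the called module genes with 1 library left out missed the threshold as deposited.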
